A study of Mus musculus with 4 samples.

Results

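The collagen genes of the mouse were followed across GC-1 and GC-2, a pair of cell lines made from testicular germ cells. The genes were taken by name: every non-control probe whose gene symbol in the scanner files was Col, a number, a and a number was kept. The rule gave 91 probes of 44 collagen genes, of 56605 probes in all, and 57 of the probes, for 35 of the genes, were bright enough to be tested. GC-1 (n = 2 arrays) was derived from type B spermatogonia immortalized by the large T antigen of SV40, and GC-2 (n = 2 arrays) from spermatocytes immortalized with large T antigen together with p53 of a temperature-sensitive form. Both lines carry large T antigen, both were grown untreated in the same serum-containing medium, and each is an established line, so the arrays compare 1 line with 1 other line. Separate cultures are not stated for the replicates of a line, and p-values therefore describe the spread between these arrays, possibly technical.

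Collagens are the main structural proteins of the extracellular matrix. Their alpha chains wind around each other into a triple helix, which needs glycine at a fixed interval (the Gly-X-Y repeat), and the chains that combine are encoded by separate genes. Fibrillar collagens form the banded fibrils of connective tissue, network collagens form sheets such as the type IV lattice of basement membranes, FACIT collagens (fibril-associated, with interrupted helices) sit on fibril surfaces, type VI forms beaded microfilaments around cells, and transmembrane collagens are anchored in the cell surface. In the testis, type IV collagen lies in the basement membrane on which spermatogonia and Sertoli cells rest, and fibrillar collagens lie in the wall of the seminiferous tubule.

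The probes are 60 bases long, and in some collagen probes the letters show the glycine spacing of a helix-coding stretch. In 4 of the 91 collagen probes (4.4%), all complete codons at 9-base intervals in 1 frame, at least 6 of them, began with GG, as glycine codons do. Over all 56605 non-control probes, 9 (0.0159%) had this pattern, these 4 among them, so it also occurred outside the probes of the named collagens. The 4 sequences are shown because they read the part of the mRNA that defines the family, and they come from the scanner files, with the glycine codons in capitals:
Col11a2: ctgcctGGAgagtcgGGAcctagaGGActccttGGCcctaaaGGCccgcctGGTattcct
Col15a1: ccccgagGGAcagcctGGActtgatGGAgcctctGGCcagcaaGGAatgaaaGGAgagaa
Col5a3: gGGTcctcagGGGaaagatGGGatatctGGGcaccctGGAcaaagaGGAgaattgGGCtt
Col6a3: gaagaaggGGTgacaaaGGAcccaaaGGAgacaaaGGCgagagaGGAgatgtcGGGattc
On mm9, the build of the scanner files, these probes lie at chr17:34189287-34189453 (plus strand), chr4:47283786-47283845 (plus strand), chr9:20590066-20590795 (minus strand) and chr1:92689602-92690594 (minus strand). The other 3 probes than that of Col15a1 cover more than 60 bases of genome, so their sequence is split between exons. The Col6a3 probe stood at -5.29 and -5.60 on the GC-1 arrays and at -3.64 and -3.58 on the GC-2 arrays, and Col11a2 is described with the fibrillar genes. The Col15a1 probe was well above background on no array, and the Col5a3 probe on 1 array of each line.

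All levels are log2 signals relative to the 75th percentile of their array, so 0 is the level of that percentile. Each probe has its own hybridization strength, and levels were therefore compared between the lines for 1 probe at a time. The exception is the lists of cell type markers, where signals were summed over genes and the brightest probes weigh most. Signals were higher on the GC-1 arrays, with a 75th percentile of 666 to 693 against 199.9 to 416 in GC-2. The share of probes well above background was 57.5% to 64.9%. Of 6 germ cell markers, 2 (Ddx4 and Dnd1) were detected in GC-1, that is above background on both arrays, and 1 (Dnd1) in GC-2, while Dazl and Kit were above background on no array. The 4 arrays shared a slide and the arrays of each line formed a row of their own, so position and line cannot be told apart. The RNA spike-in probes of the array (E1A, 8 probes) were 2.07 log2 higher in GC-2 on this scale. All directions below are relative to the 75th percentile, and scaling to the spike-ins instead would move each change down by about that amount.

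Collagen transcripts were present in both lines. At least 1 probe was well above background on both arrays for 33 of 44 genes (75%) in GC-1 and for 29 (65.9%) in GC-2, with 27 in both lines. Over 24787 genes with a probe the shares were 68.4% and 62.5%. Col27a1, Col8a2 and Col9a1 were detected in GC-1 and above background on no GC-2 array, a pattern held by 4.21% of all genes. Col25a1 alone showed the reverse, which 1.23% of all genes did. Col10a1, Col15a1, Col24a1, Col28a1, Col4a3, Col4a4, Col6a5 and Col6a6 were above background on no array, and Col2a1, the cartilage fibril chain, on 1 GC-2 array only. These 9 genes were not tested.

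Of the 35 tested genes, 7 rose and 4 fell in GC-2 (31.4%; limma, adjusted p under 0.05). Over all 17416 genes tested, 44.1% passed the same threshold, 18.3% higher and 25.8% lower, so that a call was no more frequent among collagens than elsewhere. The median change was 0.41 for the collagens and -0.13 for all genes. Each of the 11 called genes changed by at least 1 on the log2 scale. Without GC-1 replicate 1, 10 collagens were called, against 4640 of all genes in place of 7679. With E1A scaling 4 collagens were higher and 28 lower, against 642 and 15131 over all genes. The rises were Col4a6, Col6a3, Col25a1, Col8a1, Col18a1, Col6a4 and Col12a1, and the falls Col11a1, Col20a1, Col27a1 and Col1a1. Scaled to E1A, Col12a1 (-0.49) and Col6a4 (-0.32) turned to the opposite sign, and the others kept their direction.

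**Figure D1:**
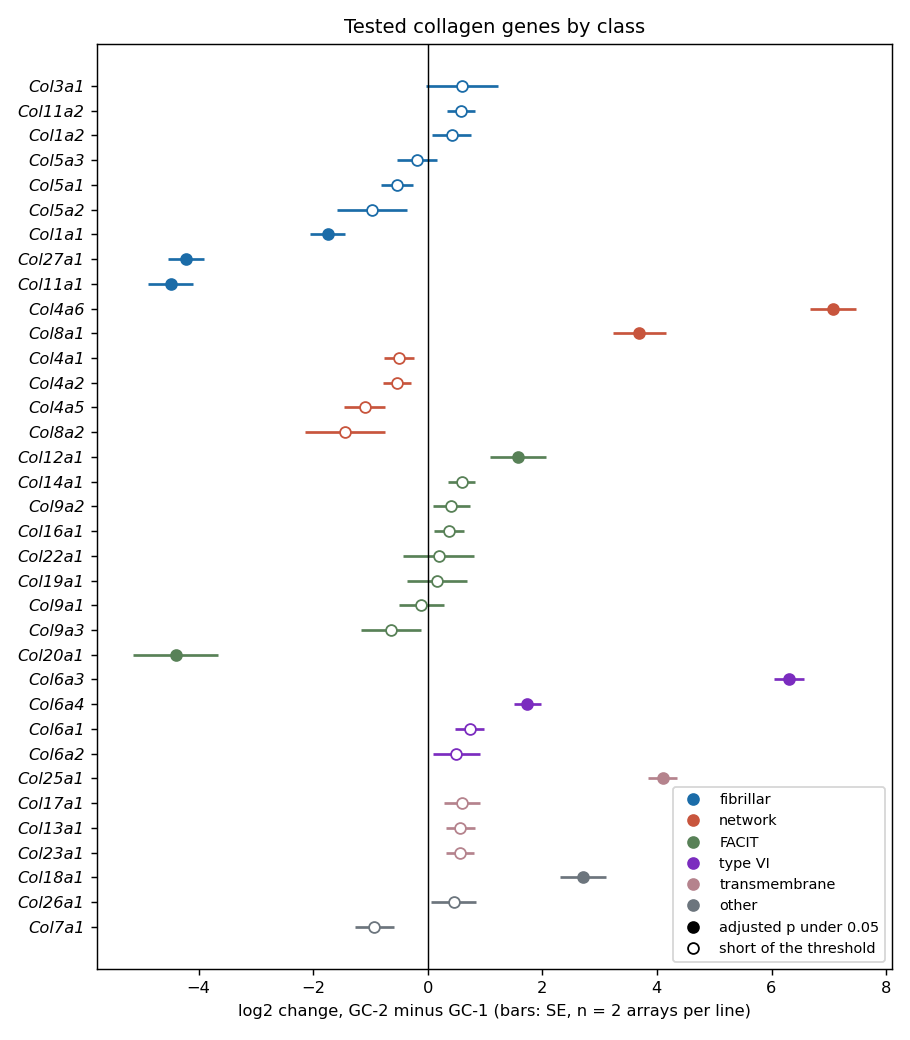
Log2 change (GC-2 minus GC-1) with its standard error for the 35 tested collagen genes, grouped by class and each represented by 1 probe, with n = 2 arrays per line. Filled points passed the threshold (11 genes). The falls are 3 fibrillar genes and the FACIT gene Col20a1, and the rises, which include the FACIT gene Col12a1, reach 7.08 for Col4a6.

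Among the fibrillar collagens, 3 of 9 tested genes fell and none rose (limma; at an unadjusted p under 0.05 also 3 and 0). Over all genes tested, 25.8% fell and 18.3% rose at the adjusted threshold. No such share is given for the unadjusted one, so no class count is read as a trait of its class. The absence of rises depended on the probe: with the mean of a gene's tested probes Col1a2 was called higher (1.48, limma adjusted p = 0.00482). Col1a1, the major chain of type I collagen, stood at 7.02 and 7.08 on the GC-1 arrays and at 5.65 and 4.95 on the GC-2 arrays. It fell by 1.75 ± 0.31 (SE; limma, adjusted p = 0.00753), and the lines did not overlap. Its partner Col1a2 did not pass the threshold on its brightest probe. That probe stood at 5.79 and 6.58 in GC-1 and at 6.73 and 6.48 in GC-2, overlapping values with a change of 0.42 (95% interval -0.43 to 1.26; adjusted p = 0.354). The interval leaves a rise of 2-fold open, and other Col1a2 probes, some called higher, are described below. Whether the Col1a1 and Col1a2 changes differ from each other was not tested.

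Col11a1, a chain of type XI collagen that helps set fibril diameter, stood at 2.00 and 1.02 in GC-1 and at -2.79 and -3.17 in GC-2. It fell by 4.49 ± 0.39 on the log2 scale, 22.4-fold (adjusted p = 0.000883), with both GC-2 arrays below both GC-1 arrays. The other tested Col11a1 probe changed by less, -1.45 ± 0.27 (limma, adjusted p = 0.00966). On that probe neither GC-2 array was well above background, so no fold is given, and the size of the fall of Col11a1 depended on the probe. In the authors' deposited table, which gives 1 log2 value per gene, the change was -1.14 and short of the threshold (adjusted p = 0.0726). Its partner Col11a2 stood at -4.61 and -4.67 in GC-1 and at -4.21 and -3.90 in GC-2 on the helix-coding probe shown above, a change of 0.58 (-0.03 to 1.19; adjusted p = 0.103). A second Col11a2 probe gave -0.71 (adjusted p = 0.237), so the gene had no settled direction.

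Col27a1, a fibrillar collagen known from cartilage, stood at -2.87 and -3.28 in GC-1. Neither GC-2 array was well above background (-7.58 and -7.00), so the difference is a bound: at least 4.18-fold lower in GC-2 (limma adjusted p = 0.000552 for the measured change of -4.22). Such bounds set the brighter line's mean against the mean, over the dimmer line's arrays, of whichever was higher, the probe's own signal or the lowest one that was well above background on that array. With normexp background correction, the change of Col27a1 was -0.13 (adjusted p = 0.791).

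The remaining fibrillar genes did not pass the threshold. For the type V chains, which co-assemble with type I, the changes were -0.53 (-1.23 to 0.17) for Col5a1, -0.98 (-2.51 to 0.55) for Col5a2 and -0.19 (-1.07 to 0.68) for Col5a3. Col3a1, the type III chain of distensible tissues, changed by 0.60 (-0.98 to 2.18). Its GC-2 arrays stood at 0.26 and -1.61, either side of the GC-1 values of -1.56 and -0.99. These intervals leave changes of 2-fold or more open for Col5a1, Col5a2, Col5a3 and Col3a1.

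Of the 6 tested network collagens, 2 rose and none fell (limma; 1 fell at an unadjusted p under 0.05). Over all genes tested, 18.3% rose and 25.8% fell at the adjusted threshold. Type IV collagen is encoded by head-to-head gene pairs that share the region between them, and the pairs read on these arrays were Col4a1 with Col4a2 on chromosome 8 and Col4a5 with Col4a6 on chromosome X. In the RefSeq annotation (GRCm38.p6), the starts that anchor the promoter table lie 21 bases apart for Col4a1 and Col4a2 and 1343 bases apart for Col4a5 and Col4a6.

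Col4a1 stood at 3.02 and 3.38 in GC-1 and at 2.80 and 2.61 in GC-2, and Col4a2 at 2.62 and 2.86 in GC-1 and at 2.20 and 2.20 in GC-2. The changes were -0.50 (-1.14 to 0.14; adjusted p = 0.164) and -0.54 (-1.13 to 0.06; adjusted p = 0.118). These are the chains of the common type IV trimer, and in both genes the GC-2 arrays were slightly below the GC-1 arrays without passing the threshold.

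In the other pair the changes had opposite signs. Col4a6 stood at -5.16 and -6.17 in GC-1, where 1 of the arrays was well above background, and at 1.62 and 1.21 in GC-2. It rose by 7.08 ± 0.40 (adjusted p = 0.000278), a measured 135-fold, on its only probe. On this scale this was the largest change of any tested collagen in either direction, but the size and rank depended on the processing. With normexp background correction the change of Col4a6 was 4.54, against 4.57 for Col6a3. Scaled to E1A it was 5.01, against -6.56 for Col11a1. Col4a5 went the other way: 2.49 and 2.08 in GC-1 and 1.60 and 0.77 in GC-2 on its brighter probe, a change of -1.10 ± 0.36 just short of the threshold (adjusted p = 0.0531). A second Col4a5 probe stood at -1.39 and -1.36 in GC-1 and at -2.39 and -3.16 in GC-2 and fell by 1.40 ± 0.32 (adjusted p = 0.018). On neither Col4a5 probe did the lines overlap. Under 6 of 14 alternative settings the brighter probe passed the threshold too. The difference between the changes of Col4a6 and Col4a5 was not itself tested.

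The stretches just upstream of these neighbours are shown because they face each other across the shared region. Both are RefSeq sequence of GRCm38.p6, read 5′ to 3′ on the gene's own strand. Each ends just outside the annotated gene, which reaches beyond the start used for the distance above, at chrX:141474096-141474326 (minus strand, 231 bases) for Col4a6 and chrX:141475169-141475369 (plus strand, 201 bases) for Col4a5, with motif matches in capitals:
Col4a6: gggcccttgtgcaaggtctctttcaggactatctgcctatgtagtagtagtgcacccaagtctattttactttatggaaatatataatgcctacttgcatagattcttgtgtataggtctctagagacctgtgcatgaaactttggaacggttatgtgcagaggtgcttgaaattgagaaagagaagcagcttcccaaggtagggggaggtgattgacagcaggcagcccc
Col4a5: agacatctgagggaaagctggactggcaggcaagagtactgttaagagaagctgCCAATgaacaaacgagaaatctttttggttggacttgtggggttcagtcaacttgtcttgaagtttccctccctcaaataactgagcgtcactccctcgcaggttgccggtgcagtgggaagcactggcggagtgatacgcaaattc
The GC content was 45.5% for Col4a6 and 49.8% for Col4a5. The motifs searched on both strands were GGGCGG (the GC box), CCAAT and TATAAA (the TATA box). Col4a5 held 1 CCAAT, and no other match was found in either window. Over 32851 RefSeq promoters, 28.6% held CCAAT in a window of 201 bases, 24.8% held GGGCGG and 9.18% TATAAA, and in a window of 231 bases the shares were 32.3%, 30% and 11.8%. A match is a description of the letters in the window.

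The other network collagens are the type VIII chains, short chains found in vessel walls and under the corneal endothelium. Col8a1 stood at 1.72 and 0.76 in GC-1 and at 5.38 and 4.47 in GC-2, without overlap. It rose by 3.69 ± 0.46, 12.9-fold (adjusted p = 0.00253). Its partner Col8a2 stood at -4.02 and -5.83 in GC-1 and, with no GC-2 array well above background, at -5.74 and -7.01 in GC-2. The bound was at least 1.16-fold lower in GC-2, and the measured change of -1.45 (-3.21 to 0.30) did not pass the threshold (adjusted p = 0.145). The arrays of the lines overlapped for Col8a2, and across the alternative settings its change ran from -3.52 scaled to E1A (adjusted p = 0.000132) to 0.75 with normexp background correction (adjusted p = 0.108). The difference between the type VIII chains was not tested.

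Of the 9 FACIT genes, all tested, 1 fell and 1 rose. Col20a1 stood at 1.68 and -0.30 in GC-1 and at -3.10 and -4.33 in GC-2. It fell by 4.40 ± 0.74, 21.1-fold (adjusted p = 0.00658), and although replicates lay more than 1 log2 unit apart in each line, the lines did not overlap. Col12a1, which binds type I fibrils, stood at -2.14 and -1.99 in GC-1 and at 0.22 and -1.21 in GC-2. Its rise of 1.57 ± 0.49 lay close to the threshold (adjusted p = 0.0461). It was lost without GC-1 replicate 1 (1.50, adjusted p = 0.186), without GC-1 replicate 2 (1.65, 0.151) and without GC-2 replicate 1 (0.86, 0.0886). A second Col12a1 probe rose by 1.47 ± 0.25 (adjusted p = 0.00642).

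The other FACIT genes did not pass. Col14a1, a fibril-associated chain, changed by 0.59 (0.01 to 1.16; adjusted p = 0.0874), and Col16a1 by 0.37 (-0.27 to 1.01) on its brightest probe. The type IX chains, which coat cartilage fibrils, changed by -0.11 (-1.09 to 0.86) for Col9a1, 0.41 (-0.38 to 1.20) for Col9a2 and -0.64 (-1.94 to 0.67) for Col9a3. Col9a1 stood at -5.80 and -5.17 in GC-1, and at -6.02 and -5.17 in GC-2 where neither array was well above background, so no fold is given. Col22a1 at 0.19 (-1.35 to 1.74) and Col19a1 at 0.16 (-1.17 to 1.49) had wide intervals and overlapping lines. Of 3 cartilage markers, Acan and Matn1 were above background on no array. The third, Sox5, was above background on both arrays of each line, at 5.63 and 5.83 in GC-1 and at 5.09 and 5.26 in GC-2.

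Of 4 tested type VI genes, 2 rose and none fell (limma; 3 and 0 at an unadjusted p under 0.05). Over all genes tested, 18.3% rose and 25.8% fell at the adjusted threshold, and the unadjusted share is not given. Col6a3, the longest chain of the classical type VI monomer, stood at -4.73 and -4.36 in GC-1 and at 1.87 and 1.65 in GC-2. Its other probes changed by less: the helix-coding probe shown above rose by 1.83 ± 0.24 (adjusted p = 0.00317), and a probe made to an Ensembl transcript by 1.50 ± 0.32 (adjusted p = 0.0142), against 6.31 ± 0.26 for the brightest probe (adjusted p = 0.00016). All 3 probes separated the lines. The size of the rise therefore ranged from 2.84-fold to 79.4-fold with the probe.

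Col6a1 and Col6a2, the chains that pair with Col6a3, were less clear. Col6a1 stood at 3.37 and 3.37 in GC-1 and at 4.28 and 3.92 in GC-2. The lines did not overlap, and the change of 0.73 (0.10 to 1.35) was short of the threshold (adjusted p = 0.0606). For Col6a2 the brightest probe, made to an Ensembl transcript, gave 0.50 (-0.53 to 1.53). The probe with the RefSeq mRNA accession stood at -2.37 and -2.21 in GC-1 and at 0.52 and 0.01 in GC-2 and rose by 2.56 ± 0.28 (adjusted p = 0.0017), and a probe to a predicted transcript rose by 1.01 ± 0.31 (adjusted p = 0.0446). Each Col6a1, Col6a2 and Col6a3 probe had a change above 0, and scaled to E1A the probes that stood for Col6a1 and Col6a2 were at -1.34 and -1.57.

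Col6a4, an alternative to the alpha3 chain, stood at -5.84 and -5.87 in GC-1 and at -4.15 and -4.07 in GC-2. It rose by 1.74 ± 0.23 (adjusted p = 0.00292), at signals near the lower end of what was above background.

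**Figure D2:**
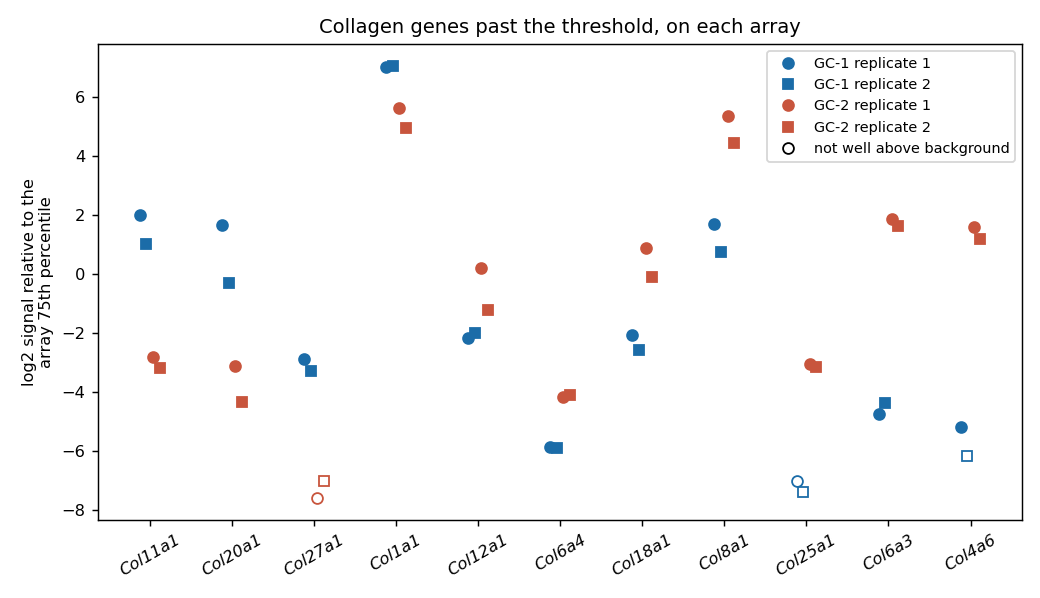
Log2 signal relative to the array's 75th percentile on each of the 4 arrays for the 11 collagen genes past the threshold, in order of change; open symbols were not well above background. In all 11 genes the arrays of the lines do not overlap, and Col4a6 and Col6a3 show the widest separation upwards. The arrays were also apart for 13 of the 24 tested collagens short of the threshold, and the share over all genes is not given here. Levels of different genes are not comparable.

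Of the 4 transmembrane collagens, 1 rose. Col25a1, first known from amyloid plaques, stood at -3.05 and -3.14 in GC-2, and at -7.01 and -7.38 in GC-1 where neither array was well above background. The lower bound of the rise on this scale was 7.79-fold, 2.96 in log2 (limma adjusted p = 0.000344 for the measured change of 4.10). Under other processing the change of Col25a1 was below that bound. It was 1.61 with normexp background correction (limma adjusted p = 0.00235) and 2.03 scaled to E1A (adjusted p = 0.000233). Its other 2 probes were above background on no array. Col17a1, a component of hemidesmosomes, changed by 0.60 (-0.20 to 1.40), Col23a1 by 0.56 (-0.05 to 1.18) and Col13a1 by 0.57 (-0.05 to 1.19) on their brightest probes.

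Among the collagens outside these classes, Col18a1, a basement membrane collagen whose end fragment is endostatin, stood at -2.05 and -2.56 in GC-1 and at 0.89 and -0.08 in GC-2. It rose by 2.71 ± 0.40, 6.55-fold (adjusted p = 0.00439), and scaled to E1A the change was 0.64 (adjusted p = 0.203). Col7a1, the anchoring fibril collagen, stood at 2.37 and 1.59 in GC-1 and at 0.91 and 1.19 in GC-2, a change of -0.93 (-1.77 to -0.08; adjusted p = 0.0721). Col26a1 changed by 0.45 (-0.55 to 1.45).

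In 15 collagen genes 2 or more probes were tested, and in 9 of them some probes passed the threshold and others did not. Like shares over all genes are not given here, so neither this count nor the next is read as a trait of collagens. For 8 genes without a call on the brightest probe, another probe was called. Col13a1 was one of them: the brightest probe, made to an Ensembl transcript, gave 0.57, and the probe with the RefSeq mRNA accession stood at -3.80 and -2.75 in GC-1 and above background on neither GC-2 array (-7.85 and -6.77). On that probe Col13a1 was at least 3.64-fold lower in GC-2 (adjusted p = 0.0027). Taking the brightest probe with a RefSeq accession, a choice made after seeing the data, gave 8 rises and 5 falls, with Col6a2 added to the rises and Col13a1 to the falls.

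Col16a1 was the only collagen with probes called in opposite directions. Its brightest probe changed by 0.37. A second probe with the same RefSeq accession gave a bound of at least 7.35-fold higher in GC-2 (-6.27 and -6.18 in GC-1, not well above background, against -3.04 and -3.31), and a probe to an Ensembl transcript was at least 1.95-fold lower in GC-2 (-3.89 and -4.46 against -6.37 and -6.99, not well above background). Col1a1 fell on both probes with a RefSeq accession (-1.75 and -1.39), while its 2 Ensembl probes gave -0.08 and 0.50, short of the threshold. Col1a2 was short of it on the RefSeq probe and rose on 2 Ensembl probes, by 1.68 ± 0.42 on one (adjusted p = 0.024) and at least 5.32-fold on the other (adjusted p = 0.00554). Col5a2 gave -0.98 on the RefSeq probe and rose by 2.44 ± 0.39 on an Ensembl probe (adjusted p = 0.0055). Further probes of Col17a1 (2.15-fold higher, adjusted p = 0.0211) and Col9a3 (-1.54, adjusted p = 0.00843, a bound of 1.08-fold) were called in the direction of the brightest probe.

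**Figure D3:**
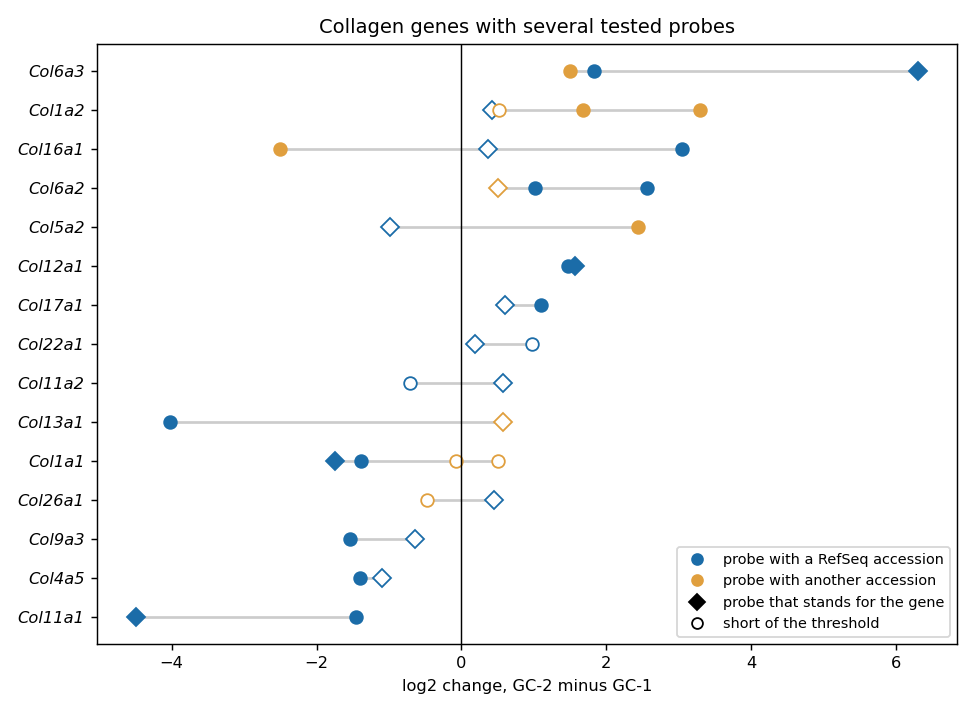
Log2 change (GC-2 minus GC-1) of each tested probe for the 15 collagen genes with 2 or more tested probes, coloured by whether the probe carries a RefSeq accession; filled symbols passed the threshold and diamonds mark the probe that stands for the gene. Probes of Col16a1 lie on both sides of 0 past the threshold, and those of Col6a3, Col13a1, Col5a2 and Col11a1, among others, lie far apart.

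Collagen chains are hydroxylated, folded, trimmed, cross-linked and bound by dedicated proteins, and the genes of 41 such proteins were read from the same fit. Of the 37 tested, 13 rose and 9 fell (59.5%, against 44.1% of all genes), with a median of 0.44. With E1A scaling 1 was higher and 25 lower. The number called was 13 without GC-1 replicate 1 and 14 without GC-2 replicate 2.

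Of 13 hydroxylation genes 6 rose and 2 fell. The rises were led by P4ha3, a catalytic subunit of prolyl 4-hydroxylase, at 3.10 ± 0.27 (adjusted p = 0.000929), and by the prolyl 3-hydroxylases P3h3 at 2.52 ± 0.26 (adjusted p = 0.00144) and P3h2 at 2.46 ± 0.43 (adjusted p = 0.00755). The call for P3h2 was lost without GC-1 replicate 1. Of 6 folding and export genes 2 rose and 2 fell. Creb3l1, a transcription factor that acts on collagen genes, rose by 2.85 ± 0.24 (adjusted p = 0.000827). Tmem38b, an endoplasmic reticulum cation channel, fell by 1.64 ± 0.49 (adjusted p = 0.0418), and Serpinh1, the collagen chaperone, by 1.07 ± 0.25 (adjusted p = 0.0197). Tmem38b was short of the threshold without GC-1 replicate 1 or GC-2 replicate 2, and Serpinh1 without either GC-1 replicate or GC-2 replicate 2, with changes from -3.14 to 0.47 over the alternatives.

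Of 7 genes for removal of propeptides 2 rose and 1 fell. Pcolce, an enhancer of C-propeptide cleavage, rose by 1.72 ± 0.23 (adjusted p = 0.00334), Adamts14 rose by 1.35 ± 0.40 (adjusted p = 0.0403) and Adamts3 fell by 0.99 ± 0.25 (adjusted p = 0.0254), the Adamts genes encoding N-propeptide proteases. Neither Adamts gene kept its call without GC-1 replicate 1, GC-1 replicate 2 or GC-2 replicate 2. Of 5 cross-linking enzymes of the lysyl oxidase family, 2 rose and 2 fell. Lox fell by 2.54 ± 0.29 (adjusted p = 0.00191) and Loxl2 by 1.31 ± 0.28 (adjusted p = 0.0147), and Loxl3 rose by 1.92 ± 0.24 (adjusted p = 0.00245). Loxl2 was short of the threshold without GC-1 replicate 2 or GC-2 replicate 2.

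Of 6 receptor and uptake genes 1 rose and 2 fell. Itga1, an integrin chain that prefers type IV collagen, fell by 3.02 ± 0.28 (adjusted p = 0.0011). Ddr1, a collagen receptor kinase, fell by 2.37 ± 0.37 (adjusted p = 0.00539), and Itga11, an integrin chain for fibrillar collagen, rose by 2.13 ± 0.42 (adjusted p = 0.0112). The rise of Itga11 was lost without GC-1 replicate 2 and in the authors' deposited table, and the fall of Itga1 on the mean of its probes. Scaled to E1A, P4ha3 (1.03, adjusted p = 0.0279) was the only rise still called. On that scale 8 of the 13 rises turned negative, namely Plod1, Plod3, P3h1, Mia3, Pcolce, Adamts14, Loxl1 and Loxl3, and Mia3 (-1.10, adjusted p = 0.0145) was called lower. Colgalt2, Tll2, Itga2 and Lair1 were not tested.

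**Figure D4:**
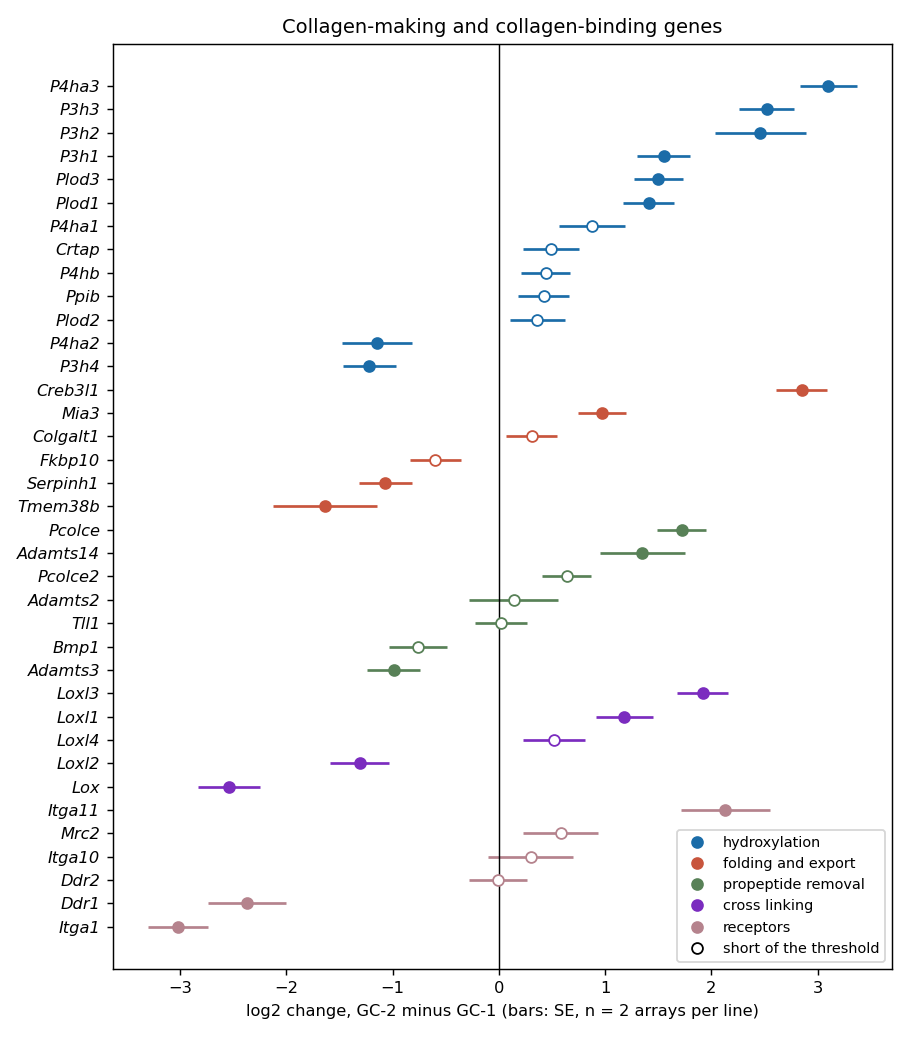
Log2 change (GC-2 minus GC-1) with its standard error for the 37 tested genes that make, trim, cross-link or bind collagen, by step, with n = 2 arrays per line; filled points passed the threshold. Rises and falls occur in every step, from 3.10 for P4ha3 to -3.02 for Itga1.

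Some markers of other cell types also differed between the lines, in both directions, and others did not. The summed linear signal (relative to the 75th percentile) of 6 epithelial and mesothelial markers was 528 and 545 in GC-1 and 1.73 and 1.74 in GC-2, with 4 of 6 and 2 of 6 above background. For 5 fibroblast and peritubular markers it was 12.7 and 12.6 against 37.5 and 41.0, with 4 of 5 above background in each line and Thy1 on no array. Among these Pdgfrb rose by 5.56 (limma, adjusted p = 0.000465) and Acta2 by 1.80 (adjusted p = 0.00405). Pdgfra (0.79, adjusted p = 0.105) and Myh11 (0.57, adjusted p = 0.117) did not pass the threshold. For 5 Sertoli cell markers the summed signal was 402 and 311 against 71.3 and 41.6, with 4 of 5 above background in each line and Amh on no array. Within that list Wt1 fell by 6.29 (limma, adjusted p = 0.000163) and Clu fell by 2.25 (adjusted p = 0.00595), Gata4 rose by 2.20 (adjusted p = 0.00212), and Sox9 did not pass the threshold (adjusted p = 0.17). The 4 macrophage markers summed to 26.5 and 15.9 against 4.68 and 5.24, with 3 of 4 above background in each line and Adgre1 on no array. Of these Cd68 fell by 4.78 (limma, adjusted p = 0.000656), Csf1r rose by 3.51 (adjusted p = 0.000514), and Ptprc did not pass the threshold (-0.35, adjusted p = 0.289). The 4 endothelial markers summed to 0.329 and 0.309 against 0.320 and 0.247. The part of these differences in the collagen changes was not tested. In bulk RNA, fewer cells that express a gene and less RNA per cell cannot be told apart.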

How the data were processed

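Total RNA of GC-1 and GC-2 (2 arrays each) was labelled with Cy3 after oligo-dT priming, per the labels' protocols. Per the file headers, the deposited intensity of each spot was extracted with Feature Extraction 11.5.1.1 (background-subtracted, not normalized between arrays). The authors' deposited table holds log2 values per gene name and was used as an alternative. Spots of a probe were averaged without outlier spots (92 to 224 per array) and no spot was saturated. From log2 intensity the array's 75th percentile over 56605 probes was subtracted. Probes with a value on all 4 arrays that were well above background on both arrays of GC-1 or of GC-2 were tested (36692 probes). The test of GC-2 minus GC-1 used limma 3.58.1 (lmFit, eBayes; R 4.3.3), two-sided, with Benjamini-Hochberg adjustment over probes and a threshold of 0.05. Its code was checked on simulated data. A gene was represented by its brightest tested probe. Gene names are those of the scanner files, and all 44 collagen names and 24787 names in all were found in the RefSeq table of GRCm38.p6. Promoter sequences were given for 35 of the 44. Exon and UTR annotation of mm9 was not used here.

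Per-array values were given for each collagen past the threshold with a log2 change of at least 1 or above background in 1 line only, and for partner chains and probes chosen after their values were seen. Of the 41 genes, up to 3 called genes per step with the largest changes were named. The members, classes and lists were chosen with earlier results of these data known. The 14 alternatives covered background correction, scaling, filter, probe choice, the deposited table, a replicate block and leaving out each array. Only 2 arrays per line limit the precision.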

Additional observations from a re-analysis of the deposited data

How the results depend on the processing

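Of the 11 collagen calls, 10 held when each of the 4 arrays was left out in turn, Col12a1 being the exception, and 6 (Col1a1, Col20a1, Col25a1, Col4a6, Col6a3 and Col8a1) held under every alternative that tested them, of 14. The count of called collagens ranged from 10 to 12 without 1 array. It was 32 scaled to E1A and 17 with the mean of a gene's tested probes. Over all genes the count was 4640 to 5976 without 1 array and 15773 scaled to E1A. For the 41 genes that make or bind collagen it was 13 to 19 without 1 array, 13 without GC-1 replicate 1 and 14 without GC-2 replicate 2. Scaled to E1A, the classes gave 9 fibrillar, 6 network, 8 FACIT, 4 transmembrane and 2 other calls. The FACIT count was 1 under quantile normalization, median scaling or no detection filter, and 1 to 2 without 1 array. Type VI gave 4 calls and transmembrane 3 with the mean of probes. Transmembrane gave 2 with normexp, 2 with RefSeq probes (chosen after seeing the data) and 0 with only probes detected on all arrays, where Col25a1 was not tested (limma; 0 of 2 also at an unadjusted p under 0.05). The other class gave 2 with normexp and 1 to 2 without 1 array. With every probe of a gene required above background, 17 genes were detected in GC-1 and 19 in GC-2.

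The replicate numbers do not count as pairs, since only 2 are shared and deviations from the line means correlated at 0.12 across probes. With a replicate block 13 collagens were called, among them 4 network genes, Col4a5 (-1.10) and Col8a2 (-1.45) being added.

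Scaled to E1A, 16 genes with a positive change turned negative: Col11a2 to -1.48, Col12a1 to -0.49, Col13a1 to -1.50, Col14a1 to -1.48, Col16a1 to -1.70, Col17a1 to -1.46, Col19a1 to -1.90, Col1a2 to -1.65, Col22a1 to -1.87, Col23a1 to -1.50, Col26a1 to -1.62, Col3a1 to -1.47, Col6a1 to -1.34, Col6a2 to -1.57, Col6a4 to -0.32 and Col9a2 to -1.66. In the authors' deposited table Col19a1 was at -0.49, Col1a2 at -0.60, Col23a1 at -0.12, Col3a1 at -0.68 and Col5a3 at 0.21. With the mean of probes Col11a2 was at -0.06, Col13a1 at -1.73, Col26a1 at -0.02 and Col5a2 at 0.73. With normexp Col8a2 was at 0.75, Col9a1 at 0.88 and Col9a3 at 0.63. With quantile normalization Col19a1 was at -0.13, and with RefSeq probes Col13a1 at -4.03. Without 1 array the changes crossed 0 for Col19a1 (-0.63 to 0.96), Col22a1 (-0.51 to 0.90), Col3a1 (-0.33 to 1.54), Col5a3 (-0.53 to 0.14), Col6a2 (-0.06 to 1.06) and Col9a1 (-0.53 to 0.31). The causes were not tested. Probes near background on the dimmer GC-2 arrays give bounds only.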
